A study of Homo sapiens with 6 samples.

Results

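Endothelin-1 and the natriuretic peptides are vasoactive peptide hormones with opposed actions on vessels. Here the 8 genes EDN1, ECE1, EDNRA, EDNRB, NPPB, NPR1, NPR2 and NPR3 were followed in Huh7 cells, a human hepatoma line, among 57905 gene IDs of the deposited expression table. They were taken by name as the endothelin ligand, its converting enzyme and receptors, and the natriuretic peptide BNP with the receptors of its family. The set was chosen by its members' FPKM values in the comparison described below, where NPPB and EDNRB differed widely, so differences of these 8 genes are given as a description, with no test. Cells of the tested arm received an siRNA against ASGR1 (siASGR1, 3 libraries), which encodes the major subunit of the hepatocyte asialoglycoprotein receptor. Cells of the control arm received a scrambled siRNA (siControl, 3 libraries). Both arms were harvested 72 h after transfection. The labels number the libraries 1 to 3 without saying whether they were separate cultures. Any p-value therefore measures how these libraries scatter, and that scatter may be technical only.

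Endothelin-1 is made as a long precursor, trimmed by furin-type proteases and finished by endothelin-converting enzyme 1, the product of ECE1. It acts through 2 G protein-coupled receptors, ET-A (EDNRA), which constricts vessels, and ET-B (EDNRB), which also clears the peptide and in the endothelium releases nitric oxide. BNP, the product of NPPB, is a heart hormone in textbook physiology; together with its relatives ANP and CNP it raises cyclic GMP through receptors that are themselves guanylyl cyclases. NPR1 is the receptor for ANP and BNP, NPR2 is the receptor for CNP, and NPR3 carries no cyclase and removes the peptides. In the liver, endothelin receptors are best known from sinusoidal and stellate cells.

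The targeted gene and the identity of the cells were checked first. ASGR1 stood at 4.6, 4.82 and 4.71 FPKM in siASGR1, against 17.54, 17.56 and 16.90 FPKM in siControl, in the table of the whole series. FPKM are fragments scaled to exon length and library size, so levels can be compared between genes. The files of the single libraries instead gave 14.65, 15.81 and 14.04 FPKM in siASGR1 and the same siControl values. ASGR1 was the only gene that differed between these sources, and all 8 genes described here were identical in both. The 10 hepatocyte markers (among them ALB, AFP and HNF4A) summed to 6832 to 6921 FPKM in siASGR1 and 3621 to 3763 FPKM in siControl. AFP alone averaged 3518 FPKM in siASGR1 and 2158 FPKM in siControl, and all 10 had a higher mean in siASGR1. Endothelial markers summed to 0.18 to 0.21 FPKM in siASGR1 and 0.15 to 0.36 FPKM in siControl over 7 genes, of which KDR, TEK, EMCN and ERG were listed at 0 throughout. Cardiomyocyte markers summed to 0 to 0.01 FPKM in siASGR1 and 0.62 to 0.91 FPKM in siControl over 8 genes. Macrophage and leukocyte markers summed to 116.0 to 119.5 FPKM in siASGR1 and 69.8 to 76.4 FPKM in siControl, nearly all of it LYZ, while PTPRC reached 0.01 FPKM at most. The part of these marker shifts in the results below was not tested. Depth, fitted from the steps between low values, was 18483000 to 19256000 fragments in siASGR1 and 16327000 to 19334000 in siControl, and the number of genes above 0 was 24609 to 25151 in siASGR1 and 26671 to 27300 in siControl.

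NPPB was far higher and EDNRB far lower in siASGR1, ECE1 and NPR2 were modestly higher, EDN1 overlapped between the groups, EDNRA and NPR1 stayed near the limit of detection in both, and NPR3 was low but above it. Of the 8 genes, 3 had a higher and 5 a lower mean in siASGR1. The groups did not overlap for 5 of them, NPPB, EDNRB, ECE1, NPR2 and, by the smallest step of the rounded values, NPR3. The same held for 38.2% of all genes above 0 in at least 1 library, and nothing is read from the comparison, since the genes were chosen with this contrast known. Only 4 of the 8 (NPPB, EDNRB, ECE1 and NPR2) passed a filter of at least 1 FPKM in at least 3 libraries. Among the 13568 genes that passed it, the groups did not overlap for 67.3%, and limma on log2(FPKM + 1) called 61.3% in either direction, which is the background of this contrast.

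**Figure D1:**
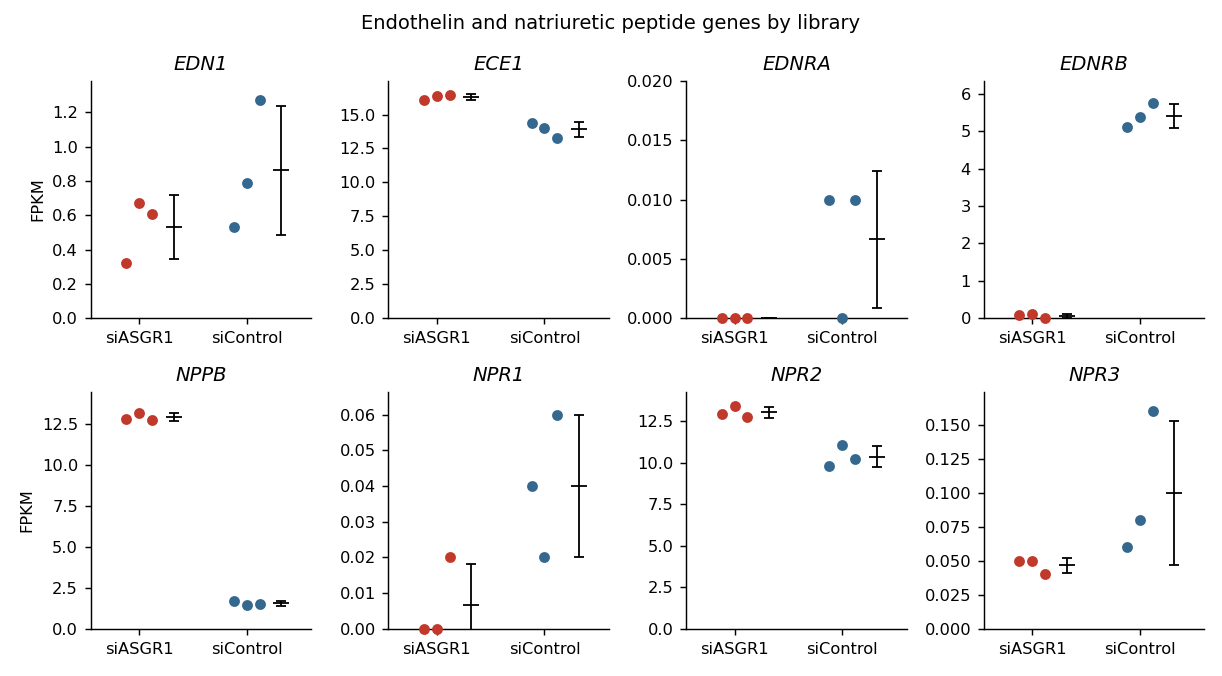
FPKM of the 8 genes (vertical axes, each from 0 and on its own scale) in the 3 siASGR1 libraries (red points) and the 3 siControl libraries (blue points), with the mean ± SD beside each group as a black bar. NPPB sits between 12.72 and 13.18 FPKM in siASGR1 and between 1.46 and 1.71 FPKM in siControl, EDNRB shows the opposite order, and the panels of EDNRA, NPR1 and NPR3 span values of at most 0.16 FPKM.

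Among the peptide ligands, NPPB (ENSG00000120937; GRCh38 chromosome 1, 11857464 to 11858931, minus strand) encodes the precursor of BNP. It was 12.79, 13.18 and 12.72 FPKM in siASGR1, against 1.71, 1.46 and 1.5 FPKM in siControl. All siASGR1 libraries lay far above all siControl libraries, and within each group the libraries stood close together. The means were 12.9 ± 0.248 FPKM in siASGR1 and 1.56 ± 0.134 FPKM in siControl (SD, n = 3 each), an 8.29-fold higher level. On the log2(FPKM + 1) scale, where the added 1 shrinks the change of a weakly expressed gene, the difference was 2.44 (SE 0.046), and 5 of 13568 tested genes had a larger positive difference. Because NPPB is short, with 694 bases of exon, its values could be turned back into whole reads: 166.1, 169.1 and 170.0 in siASGR1, against 22.9, 17.0 and 17.0 in siControl. The siControl level therefore rests on about 20 reads a library, above the 3 reads taken here as a floor, which correspond to 0.224 to 0.265 FPKM for this gene. Floors and read numbers cover counting error only. By mean FPKM, NPPB stood at percentile 73.7 of the tested genes in siASGR1 and at percentile 11.2 in siControl. Cardiomyocyte markers, given above, summed to at most 0.01 FPKM in siASGR1, where NPPB was high.

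The hormone itself is encoded by the last 32 codons of NPPB, codons 103 to 134, printed here because this is the peptide whose precursor transcript differed most among the ligands. The sequence is that of the GENCODE v29 transcript, 5′ to 3′ in frame, and capitals mark the 2 cysteine codons that close the ring by which natriuretic peptides bind their receptors.
NPPB, BNP: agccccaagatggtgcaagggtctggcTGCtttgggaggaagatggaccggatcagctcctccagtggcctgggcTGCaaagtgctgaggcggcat
The 96 bases lie at positions 405 to 500 of the transcript.

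EDN1 (ENSG00000078401; GRCh38 chromosome 6, 12290363 to 12297194, plus strand) encodes the precursor of endothelin-1. It was 0.32, 0.67 and 0.61 FPKM in siASGR1, against 0.53, 0.79 and 1.27 FPKM in siControl. The groups overlapped: the middle and the highest siASGR1 library lay above the lowest siControl library, and siControl replicate 3 alone passed 1 FPKM. The means were 0.533 ± 0.187 FPKM in siASGR1 and 0.863 ± 0.375 FPKM in siControl (SD, n = 3 each), with a log2 difference of -0.27 (SE 0.20). Rebuilt reads were 12.2, 25.2 and 23.9 in siASGR1 and 20.8, 27 and 42.2 in siControl, so the ligand was detected at a low level in every library.

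The endothelin-1 peptide is encoded by 21 codons within the precursor, codons 53 to 73 of 212, shown as the ligand that the converting enzyme and the receptors below share. Capitals mark the 4 cysteine codons, which form the 2 bridges of the peptide.
EDN1, endothelin-1: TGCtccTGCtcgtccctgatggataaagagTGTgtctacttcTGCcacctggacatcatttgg
The 63 bases lie at positions 424 to 486 of the GENCODE v29 transcript.

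ECE1 (ENSG00000117298; GRCh38 chromosome 1, 21217247 to 21345572, minus strand) encodes the membrane metalloprotease that cuts big endothelin-1 to the active peptide. It was 16.04, 16.34 and 16.43 FPKM in siASGR1, against 14.39, 14.02 and 13.30 FPKM in siControl. Every siASGR1 library was above every siControl library, by a small margin. The means were 16.3 ± 0.204 FPKM in siASGR1 and 13.9 ± 0.554 FPKM in siControl (SD, n = 3 each), a 1.17-fold higher level with a log2 difference of 0.21 (SE 0.033). An antisense gene, AL031728.1, shares 240 exon bases (3.27%) with ECE1, but stood at 0.05 to 0.09 FPKM.

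The ET-B receptor gene EDNRB (ENSG00000136160; GRCh38 chromosome 13, 77895481 to 77975529, minus strand) showed the largest difference of the endothelin genes. It was 0.08, 0.10 and 0.01 FPKM in siASGR1, against 5.10, 5.38 and 5.75 FPKM in siControl. The groups were separated by a wide gap. The means were 0.063 ± 0.047 FPKM in siASGR1 and 5.41 ± 0.326 FPKM in siControl (SD, n = 3 each), so the siASGR1 level was 1.17% of siControl, or 85.4-fold lower. The log2 difference was -2.59 (SE 0.056), and 5 tested genes had a larger negative one. Rebuilt reads were 8.4, 10.4 and 1.1 in siASGR1, 19 in all, against 552.9, 506.9 and 526.4 in siControl, 1586 in all. From these totals, scaled to depth, the fold was 89.8, with a 95% interval of 57.3 to 149.6 for counting error only. The size of the fold is therefore imprecise. Replicate 3 of siASGR1 was below the 0.028 to 0.033 FPKM that 3 reads would give, and the other siASGR1 libraries were above it. EDNRB passed the filter on low values through its siControl libraries only, so among tested genes it had to differ. An antisense gene, RNF219-AS1, shares 80 exon bases (1.43%) with EDNRB and reached 0.05 FPKM at most.

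Markers of mural, stellate and fibroblast cells, a class that carries endothelin receptors in liver, mostly moved in the same direction as EDNRB. Their sum over 9 markers was 1.43 to 1.92 FPKM in siASGR1, against 8.18 to 9.60 FPKM in siControl. Of the 9, 8 had a lower mean in siASGR1 and none was at 0 throughout. Only 3 passed the filter, COL1A1, COL1A2 and DES, and through their siControl libraries only, so among tested genes these had to differ. All 3 were called lower, where 40.4% of all tested genes were, and the median tested gene had a log2 difference of -0.13. COL1A1 was 0.03, 0.02 and 0.03 FPKM in siASGR1, against 2.77, 2.05 and 2.56 FPKM in siControl. PDGFRB, counted among the 8, was at 0.13 to 0.22 FPKM in siASGR1 and 0.12 to 0.22 FPKM in siControl, so its groups overlapped. RGS5, a mural marker, went the other way. It was 1.07, 0.73 and 0.94 FPKM in siASGR1, the highest of the 9 there, against 0.56, 0.52 and 0.53 FPKM in siControl. The samples are of the Huh7 line, and whether these low values come from Huh7 cells or from any other cells was not tested. A part of mural, stellate or fibroblast cells in the EDNRB values was not tested either. In bulk RNA, fewer cells of a type and less RNA per cell cannot be told apart.

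The ET-A receptor gene EDNRA (ENSG00000151617; GRCh38 chromosome 4, 147480917 to 147544954) was listed at 0 in all 3 siASGR1 libraries and at 0.01, 0 and 0.01 FPKM in siControl, about 2 reads in all. Both groups lay under the 0.037 to 0.043 FPKM that 3 reads allow, so no fold is given.

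The receptors of the natriuretic peptides differed strongly in level. NPR2 (ENSG00000159899; GRCh38 chromosome 9, 35792154 to 35809732), the CNP receptor, was the only natriuretic receptor gene of the set well above the floor. It was 12.92, 13.41 and 12.75 FPKM in siASGR1, against 9.81, 11.04 and 10.22 FPKM in siControl, without overlap. The means were 13.0 ± 0.343 FPKM in siASGR1 and 10.4 ± 0.626 FPKM in siControl (SD, n = 3 each), a 1.26-fold higher level with a log2 difference of 0.31 (SE 0.050). SPAG8 runs on the opposite strand over 329 exon bases (8.51%) of NPR2. It was 0.94, 0.97 and 0.99 FPKM in siASGR1, against 0.48, 0.50 and 0.65 FPKM in siControl, and since the strand setting is not given in the sources used here, reads in the shared stretch cannot be told apart.

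NPR1 (ENSG00000169418; GRCh38 chromosome 1, 153678637 to 153693992), the cyclase receptor for ANP and BNP, was 0, 0 and 0.02 FPKM in siASGR1, against 0.04, 0.02 and 0.06 FPKM in siControl. These values stand for about 2 reads in siASGR1 and 11 in siControl, near the floor of 0.031 to 0.037 FPKM, so no fold is given, and the groups overlapped at 0.02 FPKM. NPR3 (ENSG00000113389; GRCh38 chromosome 5, 32689070 to 32791724), the clearance receptor, was 0.05, 0.05 and 0.04 FPKM in siASGR1, against 0.06, 0.08 and 0.16 FPKM in siControl. That is about 26 reads in siASGR1 and 50 in siControl, of which siControl replicate 3 alone held 25.8, and every library was above the floor of 0.016 to 0.019 FPKM. Its groups did not overlap, but the gap from 0.05 to 0.06 FPKM is a single step of rounding, 9.2 against 11.4 rebuilt reads. The cyclase receptor to which BNP binds was at or near the floor in the same siASGR1 libraries in which NPPB stood at 12.9 FPKM.

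Ordered by mean FPKM in siASGR1, ECE1 came first (16.3), followed by NPR2 (13.0) and NPPB (12.9), whose libraries overlapped, then EDN1 (0.533), and far below it EDNRB (0.063), NPR3 (0.047), NPR1 (0.0067) and EDNRA (0). EDNRB and NPR3 overlapped there, as did NPR1 and EDNRA at 0. In siControl the order was ECE1 (13.9), NPR2 (10.4), EDNRB (5.41), NPPB (1.56), EDN1 (0.863), NPR3 (0.10), NPR1 (0.04) and EDNRA (0.0067). Neighbours in that order were separated without overlap except NPR3 and NPR1, which met at 0.06 FPKM, and NPR1 and EDNRA both lay near the floor.

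**Figure D2:**
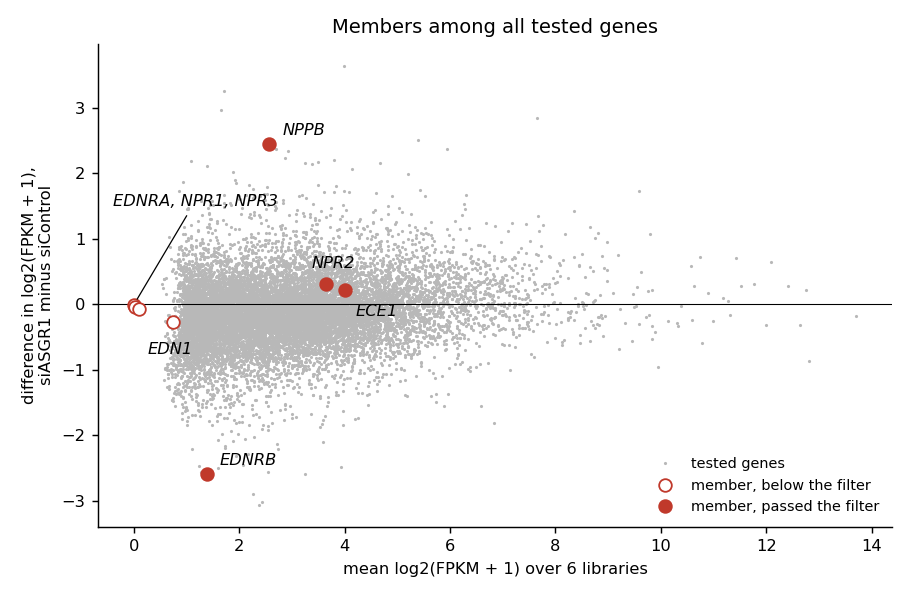
Difference in log2(FPKM + 1), siASGR1 minus siControl (vertical axis), against the mean log2(FPKM + 1) over 6 libraries (horizontal axis), for 13568 tested genes (grey) and the 8 genes (red; filled where the gene passed the filter, open where it did not). NPPB (2.44) and EDNRB (-2.59) lie at the upper and lower edges of the cloud, ECE1 (0.21) and NPR2 (0.31) lie inside it, and EDNRA, NPR1 and NPR3 lie at the far left near 0.

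A library-wide shift bears on the smaller differences. As deposited, the median tested gene had a log2 difference of -0.13, and with median-of-ratios scaling, which evens out such shifts, it had 0.039. Under that scaling NPPB was 9.55-fold, NPR2 1.45-fold and ECE1 1.35-fold higher in siASGR1, and EDNRB had a log2 difference of -2.49, so each of these 4 kept its direction.

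For each gene that passed the filter, the tested genes with the most similar profile were found by the Euclidean distance between log2(FPKM + 1) values over the 6 libraries, after centring each gene on its mean. Closest to NPPB were FGB (distance 0.164), a fibrinogen chain gene at 139.5 ± 0.291 FPKM in siASGR1 and 26.2 ± 1.39 FPKM in siControl, and the histone genes H2BC12 (0.215) and H2AC6 (0.244), whose values are uncertain because histone genes have near-identical copies. Closest to EDNRB were CCN1 (0.249), which encodes a secreted matrix protein, at 5.49 ± 0.208 FPKM in siASGR1 and 35.4 ± 0.770 FPKM in siControl, then FUT3 (0.319) and EEF1A2 (0.363). ECE1 was closest to SYMPK (0.031), HNRNPUL1 (0.048) and PRPF6 (0.048), and NPR2 to MT-ATP6 (0.063), KPNA2 (0.067) and ATP5F1A (0.070). These distances describe 6 libraries in 2 groups and are dominated by the group difference. They also depend on the added 1, which shrinks the change of a weakly expressed gene. EDNRB, 85.4-fold lower in siASGR1, thus lies near CCN1, although the fold between the CCN1 means is much smaller. The neighbours were not recomputed with a smaller pseudocount.

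Beyond the 8 genes, 106 genes of the same pathways were examined in 6 lists. Of these, 64 passed the filter, and 23 rose and 29 fell in siASGR1 by limma on log2(FPKM + 1) with Benjamini-Hochberg adjustment over all 13568 tested genes, called at an adjusted p under 0.05. Among all tested genes 20.9% were called higher and 40.4% lower, against 35.9% and 45.3% of these 64. With median-of-ratios scaling the counts were 27 higher and 19 lower of 65, beside 33.7% and 25.4% of all tested genes. The median log2 difference of the 64 genes was -0.085, against -0.13 for all tested genes.

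Of 11 genes for other ligands and precursor-processing enzymes, 3 passed the filter, of which 2 rose and 1 fell (median log2 difference 0.55). Among all tested genes 20.9% were called higher and 40.4% lower. FURIN, the convertase that trims the precursors of endothelin-1 and BNP, was 84.84, 84.95 and 84.04 FPKM in siASGR1, against 60.35, 58.84 and 53.42 FPKM in siControl, and rose 1.47-fold (limma adjusted p = 9.44e-05). PCSK6, a related convertase, was 9.33, 8.83 and 9.15 FPKM in siASGR1, against 4.95, 4.6 and 4.43 FPKM in siControl, and rose 1.95-fold (limma adjusted p = 2.28e-05). ECE2, a related converting enzyme, fell 1.61-fold, with 2.93, 3.39 and 2.81 FPKM in siASGR1, against 4.97, 5.32 and 4.44 FPKM in siControl (limma adjusted p = 0.00105). The remaining 8 genes of the list, all other endothelin and natriuretic peptide genes among them, were below the filter and 2 were listed at 0 in all libraries. The CNP gene NPPC, named after its values were seen, was 0, 0.15 and 0.15 FPKM in siASGR1, against 0.58, 0.44 and 0.40 FPKM in siControl. The ANP gene NPPA, neighbour of NPPB on chromosome 1, was 0.173 ± 0.153 FPKM in siASGR1 and 0.207 ± 0.146 FPKM in siControl (SD, n = 3 each), and its groups overlapped.

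Of 5 peptide-clearing proteases, 3 passed the filter and 2 rose, where 20.9% of all tested genes were called higher. IDE, the insulin-degrading enzyme, which also cuts natriuretic peptides, was 9.73, 9.23 and 9.93 FPKM in siASGR1, against 7.76, 6.87 and 7.06 FPKM in siControl, a 1.33-fold rise (limma adjusted p = 0.0012). CTSA, a lysosomal carboxypeptidase that degrades endothelin-1, rose 1.10-fold (limma adjusted p = 0.0442), but was not called when any siASGR1 library, siControl replicate 1 or siControl replicate 3 was left out. Its adjusted p was 0.000965 to 0.106 over the alternatives, and 8 of 14 lost the call. DPP4, which trims BNP, was 50.4 ± 2.58 FPKM in siASGR1 and 49.7 ± 2.21 FPKM in siControl (limma adjusted p = 0.766), and was called higher with median-of-ratios scaling (limma adjusted p = 0.00637; 0.00403 to 0.998 over the alternatives). MME, neprilysin, the main protease that clears both peptide families, was listed at 0 in siASGR1 and at 0.01 FPKM at most in siControl.

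**Figure D3:**
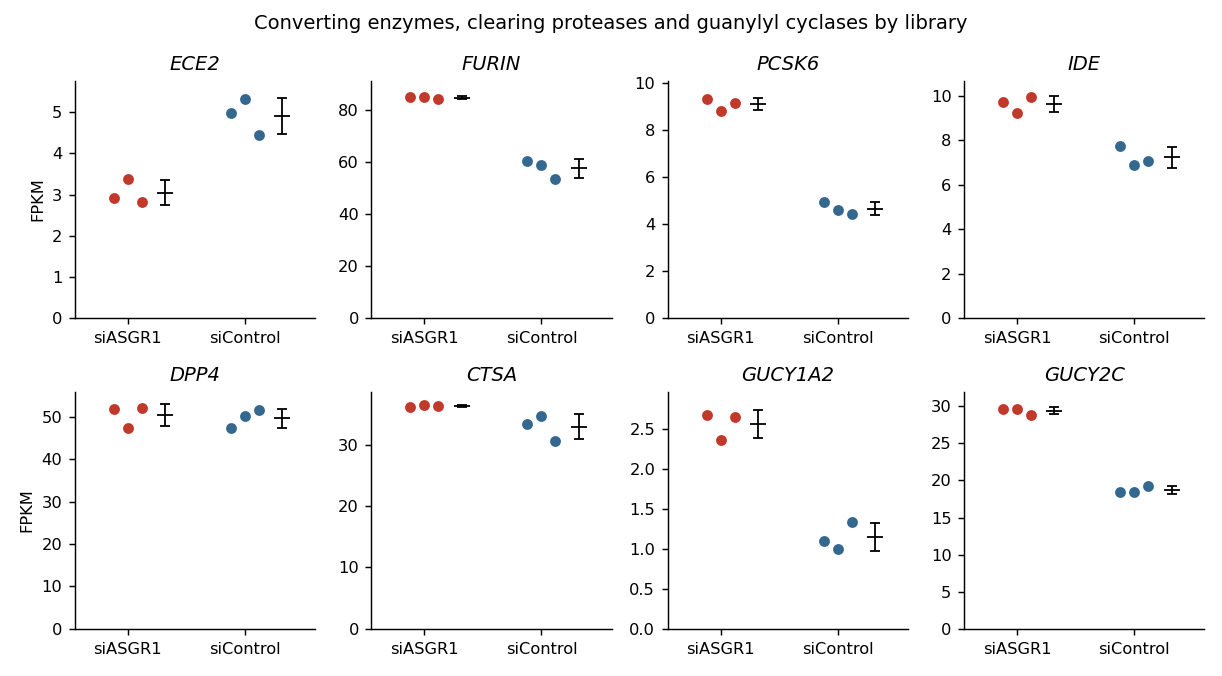
FPKM of 8 enzyme genes (vertical axes, each from 0 and on its own scale) in the 3 siASGR1 libraries (red points) and the 3 siControl libraries (blue points), with mean ± SD as a black bar. FURIN, PCSK6, IDE, GUCY1A2 and GUCY2C are higher in every siASGR1 library, as is CTSA by a small margin. ECE2 is lower in every siASGR1 library, and the groups of DPP4 overlap.

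Of 20 genes of cyclic GMP synthesis, action and breakdown, 9 passed the filter, of which 6 rose and 2 fell. Their median log2 difference was 0.38 as deposited. The calls were 66.7% and 22.2%, beside 20.9% and 40.4% of all tested genes, and 1 in each direction had to differ, as given below. With median-of-ratios scaling 6 rose and 1 fell, 66.7% and 11.1%, beside 33.7% and 25.4% of all tested genes. GUCY2C, the receptor cyclase for guanylins, was 29.65, 29.63 and 28.82 FPKM in siASGR1, against 18.40, 18.38 and 19.26 FPKM in siControl, and rose 1.57-fold (limma adjusted p = 1.87e-05). The other receptor cyclases listed, GUCY2D and GUCY2F, were below the filter. GUCY1A2, an α subunit of the soluble cyclase that responds to nitric oxide, rose 2.23-fold, to 2.56 ± 0.177 FPKM in siASGR1, against 1.15 ± 0.175 FPKM in siControl (SD, n = 3 each; limma adjusted p = 0.000403). GUCY1B1, the β subunit with which it pairs, was listed at 0 in siASGR1 and reached 0.01 FPKM in siControl. The cyclic GMP-dependent kinase genes PRKG1 and PRKG2 were at 0.073 and 0.033 FPKM in siASGR1 and 0.133 and 0.083 FPKM in siControl, below the filter. VASP, a kinase substrate of this pathway, rose 1.31-fold and PDE3B, a phosphodiesterase inhibited by cyclic GMP, 1.80-fold, while PDE9A, which is specific for cyclic GMP, fell 1.32-fold (limma adjusted p = 0.00312). That last call was lost with median-of-ratios scaling (limma adjusted p = 0.0621; 0.000723 to 0.0903 over the alternatives). PDE5A, the target of sildenafil, named after its values were seen, was 0.69, 0.57 and 0.68 FPKM in siASGR1, against 1.12, 1.58 and 1.49 FPKM in siControl. PDE5A and PDE11A, another phosphodiesterase gene, passed the filter only through the group in which each was higher, siControl for PDE5A and siASGR1 for PDE11A. Both therefore had to differ, and their calls, 1 lower and 1 higher within the counts above, add nothing to them.

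Of 25 genes that act downstream of the endothelin receptors, 22 passed the filter, of which 6 were called higher and 10 lower. That is 27.3% and 45.5%, near the 20.9% and 40.4% of all tested genes. With median-of-ratios scaling 8 and 5 of 23 were called, 34.8% and 21.7%, near the 33.7% and 25.4% of all tested genes. These counts are therefore not read as a result about the list. The phospholipase C genes PLCB1 and PLCB3, which Gq-coupled receptors activate, rose 1.79-fold and 1.53-fold (limma adjusted p = 7.3e-05 and 0.000123). PLCB1 was 7.71, 6.72 and 7.42 FPKM in siASGR1, against 4.07, 4.17 and 3.96 FPKM in siControl. ITPR3, an inositol trisphosphate receptor gene, fell 1.82-fold, with 3.25, 3.37 and 3.48 FPKM in siASGR1, against 6.43, 6.29 and 5.67 FPKM in siControl (limma adjusted p = 7.89e-05). GNA13, a G protein α subunit that couples receptors to RhoA, fell 1.71-fold (limma adjusted p = 3.47e-05), and GNAI1, an inhibitory α subunit, fell 1.37-fold (limma adjusted p = 0.000332). RHOA, named after its values were seen, was 150.1 ± 4.40 FPKM in siASGR1 and 147.8 ± 4.57 FPKM in siControl (limma adjusted p = 0.654), and was called higher with median-of-ratios scaling (limma adjusted p = 0.00258; 0.00182 to 0.993 over the alternatives).

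Other vasoactive hormone genes were higher in 5 and lower in 3 of 9 that passed the filter, of 20 examined. That is 55.6% and 33.3%, beside 20.9% and 40.4% of all tested genes. With median-of-ratios scaling the calls were 5 and 1, 55.6% and 11.1%, beside 33.7% and 25.4% of all tested genes. AGT, angiotensinogen, a liver-secreted precursor, rose 1.55-fold, to 333.9 ± 10.0 FPKM in siASGR1, against 216.0 ± 12.8 FPKM in siControl (SD, n = 3 each; limma adjusted p = 6.33e-05). AGTR1, the angiotensin II receptor, rose 1.53-fold and ADM, adrenomedullin, 1.52-fold (limma adjusted p = 0.000179 and 0.000285). ADM2, a relative of adrenomedullin, fell 1.63-fold, with 3.78, 4.16 and 3.76 FPKM in siASGR1, against 6.46, 6.54 and 6.10 FPKM in siControl (limma adjusted p = 0.000133). ATP6AP2, the prorenin receptor, fell 1.2-fold as deposited (limma adjusted p = 0.000487), and was not called with median-of-ratios scaling (limma adjusted p = 0.217; 3.43e-05 to 0.509 over the alternatives). UTS2R, named after its values were seen, was also called lower (limma adjusted p = 0.0413), but its groups met at 1.22 FPKM. It kept that call in 5 of 13 alternatives.

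**Figure D4:**
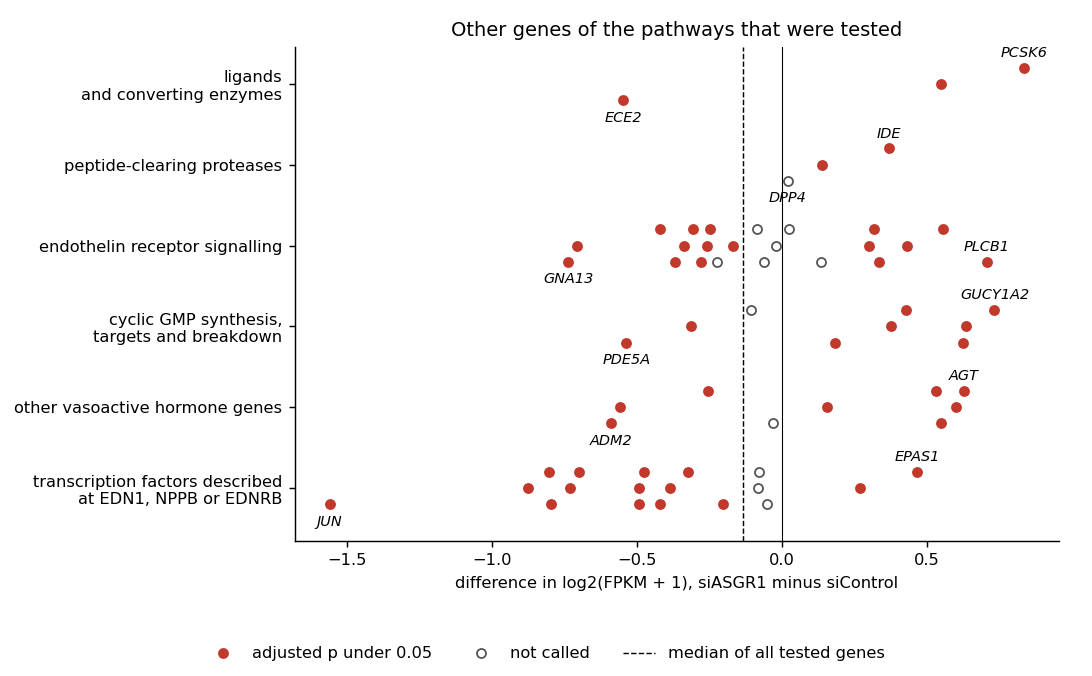
Difference in log2(FPKM + 1), siASGR1 minus siControl (horizontal axis), of the 64 other pathway genes that passed the filter, by list (rows); filled points passed the limma test at an adjusted p under 0.05, open points did not, the dashed line is the median of all tested genes (-0.13), and the genes at the ends of each row are named. The transcription factors lie mostly left of 0, with JUN at -1.56, and the other 5 lists spread to both sides or to the right.

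Transcription factors described in the literature at the EDN1, NPPB or EDNRB genes were mostly lower in siASGR1. Of 25, 18 passed the filter, of which 2 rose and 13 fell. That is 11.1% and 72.2%, beside 20.9% and 40.4% of all tested genes. The median log2 difference was -0.45 against -0.13 for all tested genes. With median-of-ratios scaling, 3 were higher and 11 lower, 16.7% and 61.1%, beside 33.7% and 25.4% of all tested genes. Without siASGR1 replicate 1, or without siControl replicate 1, 1 was called higher and 13 lower. JUN, an AP-1 subunit, was 31.58, 35.16 and 34.10 FPKM in siASGR1, against 102.9, 98.09 and 102.2 FPKM in siControl, and fell 3.01-fold (limma adjusted p = 2.08e-06). Its relatives JUND and FOSL2 fell 1.85-fold and 2.11-fold (limma adjusted p = 4e-05 and 3.62e-05). Other AP-1 genes of the list, named after their values were seen, were not called or not tested. JUNB was 15.1 ± 0.916 FPKM in siASGR1 and 16.1 ± 1.29 FPKM in siControl (limma adjusted p = 0.325), and FOS and FOSL1 were below the filter. GATA4, a heart and endoderm factor that acts on the NPPB promoter in cardiomyocytes, was 15.47, 14.29 and 14.50 FPKM in siASGR1, against 25.03, 26.43 and 24.04 FPKM in siControl, and fell 1.71-fold (limma adjusted p = 3.12e-05). It was lower in the libraries in which NPPB was higher, and any link between the 2 genes was not tested. GATA2, which acts on the EDN1 promoter in endothelial cells and was named after its values were seen, fell 2.09-fold (limma adjusted p = 0.000136). EPAS1, which encodes HIF-2α, rose 1.40-fold (limma adjusted p = 6.03e-05). The cardiac factors NKX2-5 and TBX5 were listed at 0 in all libraries. MITF and SOX10, melanocyte and neural crest factors described at EDNRB, were below the filter and were named after their values were seen. MITF was 0.01, 0.02 and 0.01 FPKM in siASGR1, against 0.24, 0.23 and 0.26 FPKM in siControl, and SOX10 was 0.09, 0.06 and 0.08 FPKM in siASGR1, against 0.45, 0.42 and 0.25 FPKM in siControl.

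The promoter stretches of EDN1 and EDNRB are printed because they were the windows of the set with a match to a motif of these factors. A RefSeq table (GRCh38.p14) held 14 start windows for 7 of the 8 genes, without one for NPPB, and the 250 bases before each start were searched on both strands. The motifs, picked after these sequences had been seen, were GATAA for GATA factors, TGANTCA and TGACTAA for AP-1, CATGTG for the M-box of MITF and CACGTG for the E-box. Capitals mark the matches, and the sequences run 5′ to 3′ on the gene's strand.
EDN1, chr6:12290111-12290360, plus strand: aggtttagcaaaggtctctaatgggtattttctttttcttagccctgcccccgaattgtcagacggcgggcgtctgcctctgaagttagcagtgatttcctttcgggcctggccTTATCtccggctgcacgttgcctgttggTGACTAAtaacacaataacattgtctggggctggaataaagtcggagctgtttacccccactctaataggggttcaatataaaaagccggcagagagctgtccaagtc
EDNRB, chr13:77919683-77919932, minus strand: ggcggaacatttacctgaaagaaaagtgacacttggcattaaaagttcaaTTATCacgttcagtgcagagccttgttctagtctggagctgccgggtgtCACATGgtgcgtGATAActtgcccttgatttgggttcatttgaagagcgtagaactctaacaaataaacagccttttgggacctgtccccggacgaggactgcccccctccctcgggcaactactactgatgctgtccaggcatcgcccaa
The EDN1 stretch held a GATAA match on the opposite strand that begins 136 bases before the start, and TGACTAA at 108 bases. The EDNRB stretch held GATAA matches at 200 and 139 bases and a CATGTG match at 151 bases before that start. The other 12 windows held none of these letters. Among 35116 windows of the table, 20.4% held GATAA, 6.57% TGANTCA, 1.62% TGACTAA, 9.42% CATGTG and 6.34% CACGTG in the same 250 bases. The motifs do not overlap one another in either stretch, and a match describes letters only.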

How the data were processed

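RNA from 6 libraries was sequenced after TruSeq preparation of 1 µg of total RNA. The submitters' processing notes list HISAT2 2.0.1, cutadapt 1.9.1 and bcl2fastq 2.17.1.14, with the build hg19. The counting program, annotation and strand setting were not given in the sources used here. As deposited by the authors, values are FPKM, rounded to 2 decimals, per the file headers. The table of the whole series was used.

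Depth and reads were rebuilt from the steps between low values with GENCODE v29 exon lengths, available for 52338 IDs. Between 94.5% and 95.6% of 4083 to 5013 low values per library came out whole within rounding, where 7.04% to 8.36% would by chance. Symbols were found for 51996 IDs, and coordinates are those of GENCODE v29.

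Genes that reached 1 FPKM in 3 or more libraries were tested with limma 3.58.1 in R 4.3.3 on log2(FPKM + 1), with the group as the only term, a trended prior, two-sided, adjusted over all tested genes and called under 0.05. The fit was also run on simulated data with few changed genes and no library-wide shift. Those settings are unlike these data, so that run does not bear on the calls given here. The members, lists and tests were chosen with earlier results of these data known. Genes named are the 8 members, ASGR1, up to 5 called genes of each list by adjusted p, the processing, clearing and cyclase genes that passed, and 3 nearest profiles per member. Other names are marked in the text or stand for undetected genes. Alternatives covered scaling, pseudocount, filter, prior, rebuilt reads with voom, a replicate block and leaving out each library. Figures were drawn with matplotlib 3.10.9, and tables were handled in Python 3.11.15 (pandas 2.3.3, scipy 1.17.1, numpy 2.4.6).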

Additional observations from a re-analysis of the deposited data

How the results depend on the processing

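Over 14 alternative settings, counts of calls moved most with scaling and with a stricter filter, and the log2 differences of NPPB and EDNRB moved most with the pseudocount and with rebuilt reads. With median-of-ratios and upper-quartile scaling, 4548 and 4789 tested genes were called higher and 3439 and 3215 lower in siASGR1, against 2839 and 5480 as deposited, and 19 and 17 of the other pathway genes were called lower, against 29. When FPKM of at least 5 were required, 3382 genes were called lower. The log2 differences under median-of-ratios and upper-quartile scaling were 2.60 and 2.62 for NPPB (2.44 as deposited), -2.49 and -2.49 for EDNRB (-2.59), 0.41 and 0.43 for ECE1 (0.21), and 0.49 and 0.52 for NPR2 (0.31). With a pseudocount of 0.1 they were 2.98 for NPPB and -5.12 for EDNRB, and from rebuilt reads with voom 3.01 and -6.81, since less is added before the logarithm. Leaving out 1 library at a time gave 2.42 to 2.49 for NPPB, -2.63 to -2.55 for EDNRB, 0.18 to 0.24 for ECE1 and 0.27 to 0.35 for NPR2. For EDN1 it gave -0.40 to -0.12. The same gave 20 to 22 pathway genes higher and 27 to 30 lower, and 2495 to 2757 of all tested genes higher and 4950 to 5151 lower. Under median-of-ratios and upper-quartile scaling, log2 differences that were below 0 as deposited turned positive for GNA11 (0.026 and 0.049), GNA12 (0.10 and 0.12), ITPR1 (0.10 and 0.12), ROCK2 (0.16 and 0.19), ABCC4 (0.069 and 0.090), RAMP1 (0.14 and 0.16), JUNB (0.11 and 0.13), YAP1 (0.15 and 0.17) and SP1 (0.11 and 0.14), and GATA6 turned under upper-quartile scaling only (0.0080). With a library left out, the sign also changed for DPP4 (-0.016 to 0.062), RHOA (-0.0023 to 0.041), ROCK2 (-0.060 to 0.027) and RAMP1 (-0.17 to 0.10). Over the other pathway genes that passed the filter, 799 of 881 recomputed values kept direction and call, 44 lost the call, 9 gained one and 29 changed sign, of which 22 were called neither as deposited nor under the alternative. The cause was not tested beyond the scaling itself.

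Replicate numbers did not pair the libraries: deviations of same-numbered libraries correlated at -0.0189, 0.00208 and 0.0125 across 13568 genes, and 0 of 6 libraries were closest to their own number. With the replicate number as a block, 22 pathway genes were called higher and 30 lower, and 2761 and 5303 of all tested genes. Depth limits EDNRA and NPR1, which rest on fewer than 5 reads a library, and the siASGR1 level of EDNRB, which rests on 1.1 to 10.4 reads a library.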
